A study of Homo sapiens with 6 samples.

Results

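The 7 miRNA names followed here lie near the end of the long arm of human chromosome 19 and were chosen by name, 5 from the neighbouring MIR371A, MIR371B and MIR372 genes (the miR-371 locus below) and 2 from the adjacent chromosome 19 miRNA cluster (C19MC), picked there for their read numbers. They are hsa-miR-371a-3p, hsa-miR-371a-5p, hsa-miR-371b-3p, hsa-miR-372-3p, hsa-miR-372-5p, hsa-miR-522-3p and hsa-miR-1323, with the species prefix left out from here on. These are 7 of 1007 names in the count table, of which 497 are known human miRNAs and 510 are sequences predicted by the authors. The libraries hold small RNA of 18 to 30 nt from extracellular vesicles that MHCC97H cells, a human hepatoma line of high metastatic potential, released into their medium. In 3 libraries the cells had been exposed for 24 h to 4 µmol/L of xanthatin, a plant sesquiterpene lactone, and 3 libraries were controls. DMSO was at 0.5% in all experiments, and the medium of all cultures held 5% ordinary and 5% exosome-depleted fetal bovine serum. The labels do not say whether the 3 samples of a group came from separate cultures, so p-values measure only the spread between these samples, which may be technical.

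miRNAs are cut from hairpin precursors and pair with target transcripts mainly through bases 2 to 8, the seed. The hairpins of miR-371, miR-372 and miR-373 are transcribed in human embryonic stem cells and germ cell tumours, and their counterpart in the mouse is the miR-290 cluster. C19MC is a primate-specific, imprinted cluster that is read from the paternal copy in placenta. Neither cluster is typical of adult liver, and expression of C19MC has been described in a subset of liver cancers.

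The mature sequences below, from RefSeq on GRCh38.p14, are shown because the seed separates the members into those that carry the embryonic AAGUGC motif and those that do not. Seeds are in capitals, 5′ to 3′.
miR-372-3p: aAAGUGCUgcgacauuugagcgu
miR-373-3p: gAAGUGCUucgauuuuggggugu
miR-302a-3p: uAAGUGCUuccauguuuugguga
miR-371a-3p: aAGUGCCGccaucuuuugagugu
miR-371b-3p: aAGUGCCCccacaguuugagugc
miR-371a-5p: aCUCAAACugugggggcacu
miR-372-5p: cCUCAAAUguggagcacuauucu
miR-1323: uCAAAACUgaggggcauuuucu
miR-372-3p has the same seed as miR-373-3p of its own locus and miR-302a-3p of the embryonic miR-302 cluster, both shown for comparison. The motif AAGUGC stood in 3 of the 6 members matched in the RefSeq table, against 1.65% of 2370 distinct human mature names (searched on the mature strand alone). miR-371a-3p and miR-371b-3p share their first 7 bases, and in both the motif starts at base 1, so that their seeds begin inside it. No other human name in the table has the seed of miR-371a-3p, miR-371b-3p, miR-371a-5p or miR-372-5p, while that of miR-1323 also occurs in miR-548o-3p.

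The precursors follow each other on chromosome 19. MIR1323 lies at chr19:53671968-53672040 and MIR522 at chr19:53751211-53751297, both on the plus strand, and in GENCODE release 29 neither overlaps another annotated transcript. MIR371A (chr19:53787675-53787741, plus strand), MIR371B (chr19:53787677-53787742, minus strand) and MIR372 (chr19:53787890-53787956, plus strand) all overlap an exon of the long noncoding RNA AC008753.3 on the minus strand. MIR371A and MIR371B are read from opposite strands of the same 65 bases. Their hairpins are printed here with the mature arms in capitals, because the arms face each other.
MIR371A: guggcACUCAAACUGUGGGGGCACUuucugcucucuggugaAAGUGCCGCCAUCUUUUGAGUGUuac
MIR371B: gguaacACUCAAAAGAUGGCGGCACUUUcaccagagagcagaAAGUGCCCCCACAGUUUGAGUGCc
All 20 bases of miR-371a-5p lie in the reverse complement of miR-371b-3p. Adapters were joined to each RNA end, but whether the counting used strand is not given in the sources used here, so reads of these 2 names may not be fully told apart.

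Vesicle libraries of xanthatin-treated cells held a smaller fraction of the miR-371 locus than control libraries, while the C19MC members, also at lower levels, did not pass the test. The 7 names together made up 1.94% ± 0.366 of miRNA counts in xanthatin libraries and 6.81% ± 1.23 in control libraries (SD, n = 3 each). In single xanthatin libraries the share was 1.92%, 1.59% and 2.32%, and in control libraries 5.52%, 6.96% and 7.97%, so the groups did not overlap. All 7 members had enough counts to be tested, miR-1323 only through the control libraries, so its direction was tied to the count filter. Of the 7 members, 4 fell at an adjusted p under 0.05 in the edgeR quasi-likelihood test, and all 4 come from the miR-371 locus. Among all tested names, 30.3% were called in either direction, 16.9% lower and 13.4% higher. With library totals as the only scaling, 23.6% were called lower and 8.66% higher, and 5 members fell. The other 3 members did not pass. The median log2 fold change was -1.44 over the members and -0.16 over all tested names. In CPM, the miRNA counts scaled to a common library size, the groups did not overlap for 7 of 7 members, with xanthatin lower, as for 29.5% of tested names.

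**Figure D1:**
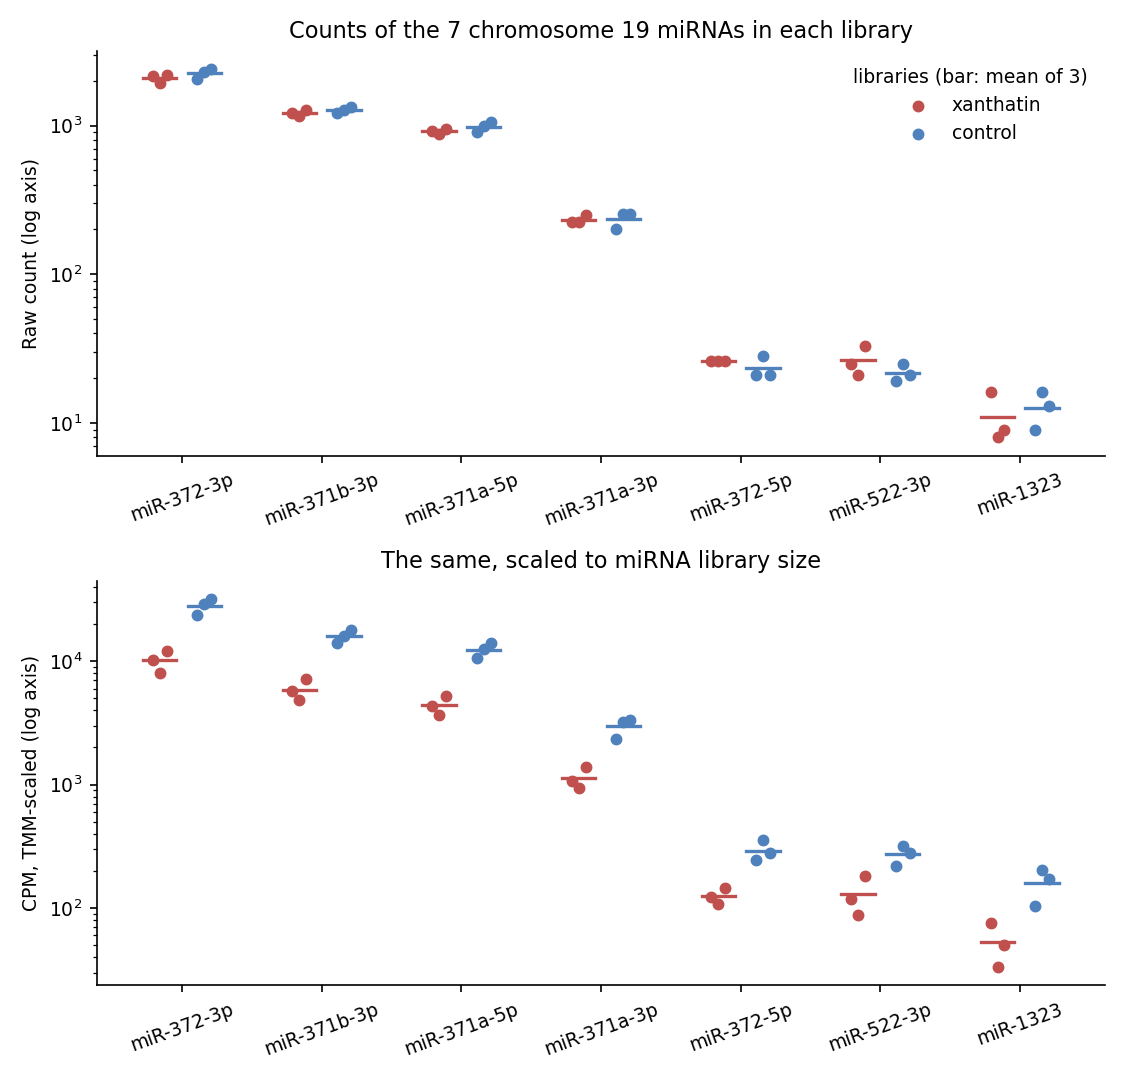
Each point is 1 library, with xanthatin libraries left of control libraries and a bar at the mean of 3. The upper panel gives raw counts and the lower panel TMM-scaled CPM, both on log axes. The raw counts of the groups overlap for all 7 members, and the CPM values of xanthatin libraries all lie below those of control libraries.

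miR-372-3p, known as a repressor of the Hippo pathway kinase LATS2, was the most abundant member. It was read 2148, 1936 and 2198 times in xanthatin libraries and 2048, 2295 and 2397 times in control libraries. These raw ranges overlap, while the libraries themselves differed in size, with 204520 to 267956 miRNA counts in xanthatin and 63965 to 80088 in control libraries. Scaled to library size, miR-372-3p was at 10142 ± 2080 CPM in xanthatin and 28199 ± 4154 CPM in control libraries (SD, n = 3 each, as for every CPM value given with an error). That is a log2 fold change of -1.48 (SE 0.19, edgeR adjusted p = 0.00272), or 2.78-fold lower, with every xanthatin library below every control library.

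miR-371a-3p, used as a blood marker of germ cell tumours, had 224, 224 and 251 counts in xanthatin libraries and 201, 255 and 253 in control libraries. Again the counts of the groups overlap before scaling and do not overlap after it. The scaled levels were 1129 ± 239 CPM in xanthatin and 2972 ± 563 CPM in control libraries, a log2 fold change of -1.40 (SE 0.26, edgeR adjusted p = 0.00839). It kept the same direction without control replicate 2, at -1.27, but no longer passed (edgeR adjusted p = 0.0522, where 8.99% of names were called lower). With no count filter it was at -1.14 (edgeR adjusted p = 0.0555, where 2.98% were called lower).

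The opposite arm of that hairpin, miR-371a-5p, was the more abundant one. It had 914, 881 and 947 counts in xanthatin libraries, against 910, 993 and 1049 in control libraries. Its level was 4416 ± 802 CPM in xanthatin and 12346 ± 1722 CPM in control libraries, a log2 fold change of -1.48 (SE 0.19, edgeR adjusted p = 0.00272). The 5p arm held 80.3%, 79.7% and 79.0% of the miR-371a counts in xanthatin libraries and 81.9%, 79.6% and 80.6% in control libraries. A share of this kind does not depend on library scaling. The mean difference was -0.98 percentage points and the groups overlapped (two-sided exact permutation test, p = 0.3, where 3 libraries against 3 allow no p below 0.1).

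In the miR-372 hairpin the balance was the reverse, with most reads from the 3p arm. miR-372-5p had 26 counts in each xanthatin library and 21, 28 and 21 counts in control libraries. This made the 5p share 1.23% ± 0.0835 in xanthatin and 1.03% ± 0.169 in control libraries (SD, n = 3 each; two-sided exact permutation test, p = 0.3). Adjusted by the Benjamini-Hochberg method over the 2 arm shares compared, both p-values were 0.3. In CPM, miR-372-5p was at 125 ± 18.2 in xanthatin and 292 ± 56.4 in control libraries. Its log2 fold change of -1.22 (SE 0.47) did not pass in the edgeR test (adjusted p = 0.0948). The change passed with library totals only (-1.56, adjusted p = 0.0459), DESeq2 (-1.14, adjusted p = 0.0473) and limma-voom (-1.23, adjusted p = 0.0491), the last 2 of which called 21.3% and 20.1% of names lower.

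miR-371b-3p, from the antisense hairpin printed above, had 1217, 1160 and 1280 counts in xanthatin libraries and 1210, 1274 and 1343 counts in control libraries. It was at 5898 ± 1149 CPM in xanthatin and 15991 ± 1935 CPM in control libraries, a log2 fold change of -1.44 (SE 0.18, edgeR adjusted p = 0.00272). Its counts kept step with those of its complement, miR-371a-5p. The ratio of miR-371a-5p to miR-371b-3p counts was 0.751, 0.759 and 0.740 in xanthatin libraries and 0.752, 0.779 and 0.781 in control libraries. miR-371a-5p therefore took 42.5% to 43.2% of the counts of this pair in xanthatin and 42.9% to 43.9% in control libraries. The exact 95% binomial intervals of the 6 libraries all overlap. Without molecular identifiers, these intervals describe the counting error alone.

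**Figure D2:**
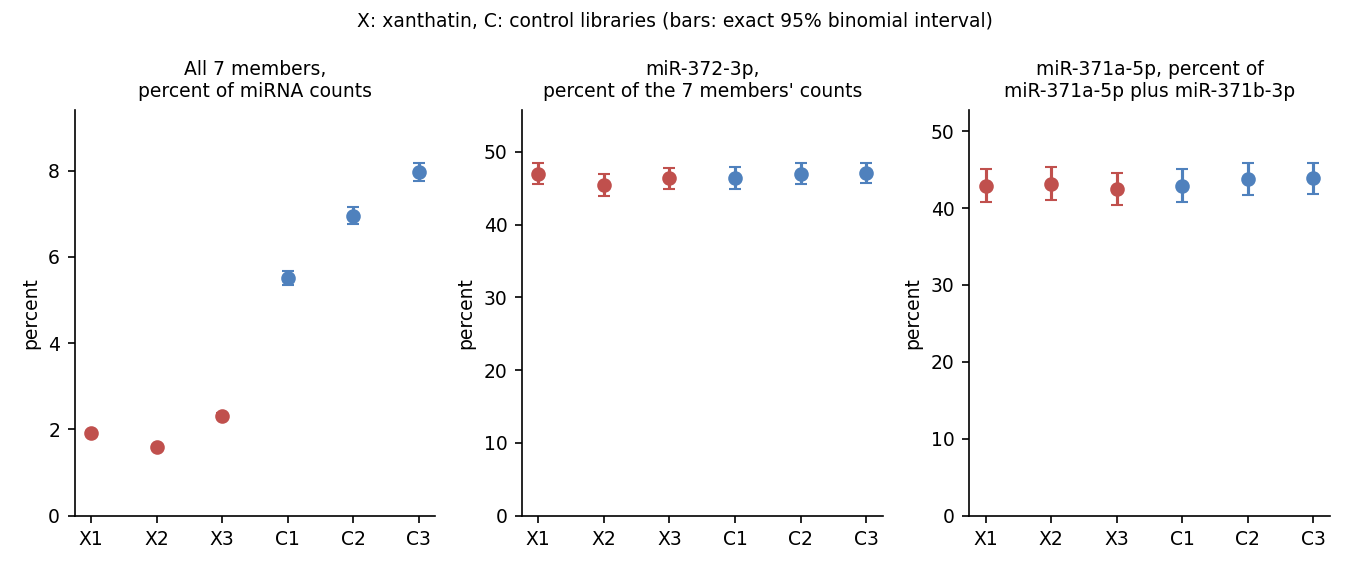
Points are single libraries (X for xanthatin, C for control) and bars are exact 95% binomial intervals of a percentage. From left to right, the panels give the 7 members as a percent of miRNA counts, miR-372-3p as a percent of the members' counts, and miR-371a-5p as a percent of its pair with miR-371b-3p. The first differs between the groups, at 1.59% to 2.32% in xanthatin and 5.52% to 7.97% in control libraries, while the other shares overlap.

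The C19MC members were read far less. miR-522-3p had 25, 21 and 33 counts in xanthatin libraries and 19, 25 and 21 counts in control libraries, or 130 ± 49.0 CPM in xanthatin and 272 ± 48.4 CPM in control libraries. Its log2 fold change was -1.06 (SE 0.52, edgeR adjusted p = 0.162). miR-1323, at the start of the cluster, had 16, 8 and 9 counts in xanthatin libraries and 9, 16 and 13 counts in control libraries. Its levels were 53.0 ± 21.4 CPM in xanthatin and 160 ± 50.3 CPM in control libraries, a log2 fold change of -1.58 (SE 0.64, edgeR adjusted p = 0.104). For both, the CPM values of the groups did not overlap, but neither passed in the edgeR test or in any of 16 alternatives. miR-1323 reached the count filter only in control libraries. With no count filter it was at -1.31 (SE 1.34, edgeR adjusted p = 0.543). Many C19MC members are close copies of each other, so reads may have been shared between names in the deposited counts.

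Proportions among the members overlapped between the groups. The C19MC pair took 0.897%, 0.681% and 0.885% of the members' counts in xanthatin libraries and 0.634%, 0.839% and 0.667% in control libraries. miR-372-3p took 46.3% ± 0.758 of them in xanthatin and 46.8% ± 0.373 in control libraries (SD, n = 3 each). In CPM the order was miR-372-3p, miR-371b-3p, miR-371a-5p, miR-371a-3p, miR-372-5p, miR-522-3p and miR-1323 in the mean over all 6 libraries. The ranges of miR-372-5p and miR-522-3p overlapped in both groups, and those of miR-371b-3p and miR-371a-5p overlapped in xanthatin libraries, although miR-371b-3p had the higher count in all 6 libraries. The counts are of reads given to a whole mature miRNA, so these levels have no length term, but adapters join different sequences with unequal efficiency.

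Relative to the totals behind the deposited TPM, the members were also lower in xanthatin libraries. The miRNA counts made up only 0.761% to 0.841% of these totals in xanthatin and 0.660% to 0.708% in control libraries. The ratio of mean TPM, xanthatin over control, ran from 0.305 for miR-1323 to 0.436 for miR-522-3p, and the groups did not overlap for any of the 7, as for 30.7% of tested names in that direction. In raw counts the summed ratio ran from 0.868 for miR-1323 to 1.22 for miR-522-3p. The raw groups overlapped for all 7 members and for 42.5% of tested names. The summed miRNA counts of xanthatin libraries were 3.32-fold those of control libraries. These are relative levels: less of these miRNAs and more of the other miRNAs cannot be told apart. Nor can fewer cells that release these miRNAs and less of them per cell. Every fold change of a member rests on overlapping raw counts set against unequal totals, and whether part of these reads came from another library was not tested.

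**Figure D3:**
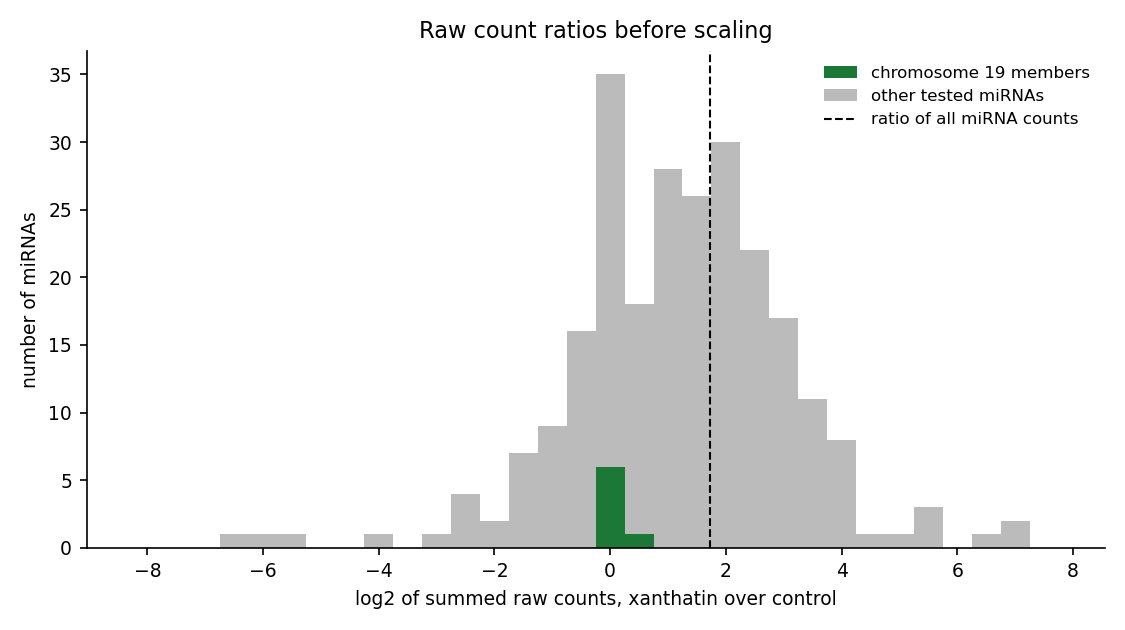
The histogram counts tested miRNAs by the log2 ratio of their summed raw counts, xanthatin over control, for the 246 with counts in both groups. Members, in green, sit between -0.20 and 0.28, and the dashed line marks the ratio of all miRNA counts at 1.73.

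Apart from miR-373-3p, the rest of both clusters was sparse. Over the 6 libraries miR-373-3p had 287 counts, more than the members miR-372-5p (148), miR-522-3p (144) and miR-1323 (71). miR-373-3p, which shares the seed of miR-372-3p and is known to promote cell invasion, had 52, 47 and 50 counts in xanthatin libraries and 25, 49 and 64 in control libraries, with a log2 fold change of -1.29 (SE 0.50, edgeR adjusted p = 0.0994). Its other arm, miR-373-5p, had 3, 2 and 0 counts in xanthatin libraries and 3, 2 and 3 in control libraries, too few to test. Outside the 2 members, 8 entries of C19MC had counts. Among these is 1 that names several miRNAs together, with miR-522-5p, the other arm of the MIR522 hairpin, included. Of the 8 entries, 1 was tested. That was miR-516b-5p, with 4, 7 and 7 counts in xanthatin libraries and 7, 10 and 9 in control libraries (log2 fold change -1.88, SE 0.64, edgeR adjusted p = 0.0676). miR-516a-5p had 8, 3 and 3 counts in xanthatin libraries and 2, 16 and 6 in control libraries. Beyond the members, then, 2 names of both clusters were tested, and neither passed. At its low counts, miR-516b-5p reached the count filter only in control libraries, so its direction was tied to the filter.

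Relatives of the seed outside chromosome 19 were compared next. Of the listed names with the AAGUGC motif, 4 had counts and 3 were tested. In the edgeR test 0 of these passed and 1, miR-20a-5p, had an unadjusted p under 0.05. With DESeq2 1 passed, and with limma-voom 1 passed. Among all 254 tested names, DESeq2 called 114 and limma-voom 81, in either direction. For the miR-302 cluster, 0 names matched in the table used here. miR-20a-5p, which belongs to a cluster that promotes cell growth, had 12, 27 and 12 counts in xanthatin libraries and 26, 16 and 18 in control libraries (log2 fold change -1.64, edgeR adjusted p = 0.0676). miR-17-5p of the same cluster was at -1.27 (adjusted p = 0.162) and miR-93-5p at 0.86 (adjusted p = 0.55). Of the 3, miR-17-5p and miR-20a-5p passed the count filter only through the control libraries, and miR-93-5p only through the xanthatin libraries. Their direction was therefore tied to the filter. The name not tested, miR-106b-5p, had 0, 15 and 30 counts in xanthatin libraries and 0 in each control library.

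Other miRNAs of the same chromosome were read for comparison. Of 28 other names whose precursors all lie on that chromosome outside both clusters, 11 were tested. In the edgeR test 0 rose and 1 fell, and 4 had an unadjusted p under 0.05. With DESeq2 4 passed, and with limma-voom 1 passed. Among all 254 tested names, 77 were called with edgeR, 114 with DESeq2 and 81 with limma-voom, in either direction. The name that fell in the edgeR test was miR-99b-3p, at -2.81 (adjusted p = 0.0435). It passed the count filter only through the control libraries, so its direction was tied to the filter. The median log2 fold change of the 11 tested names was 0.37, and 5 of them lay below 0.

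**Figure D4:**
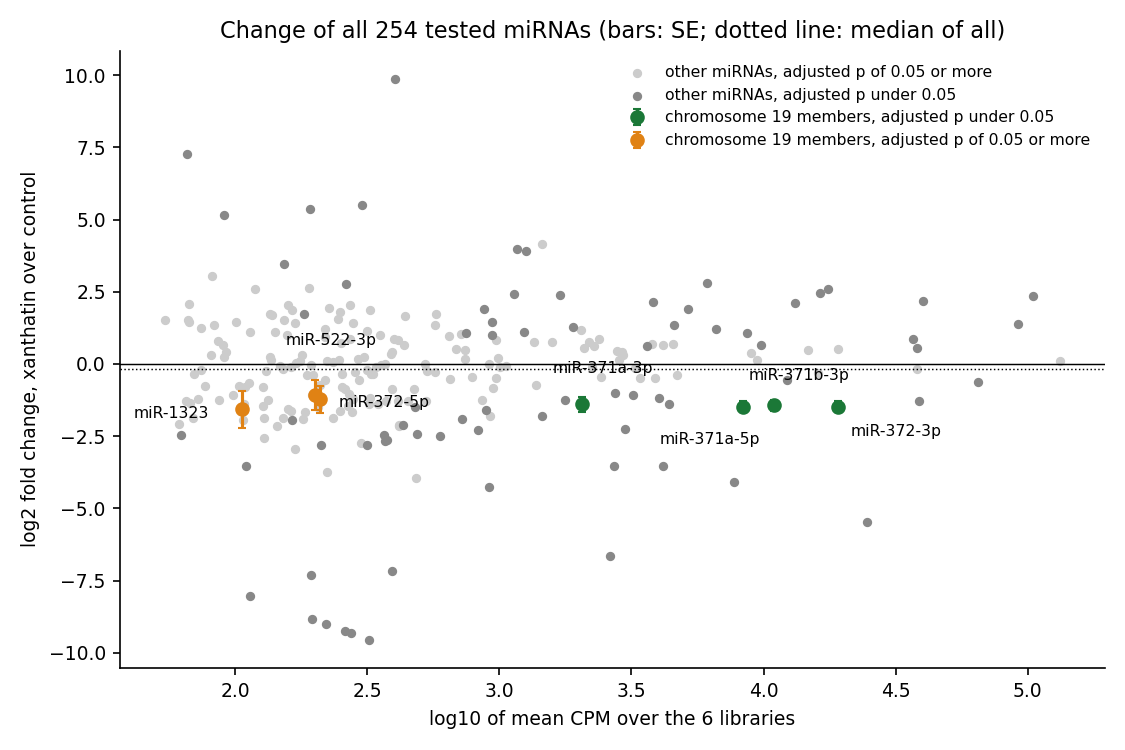
Each point is 1 of 254 tested miRNAs, by the log10 of its mean CPM and its log2 fold change, xanthatin over control. Members are coloured, with SE bars. The members lie between -1.58 and -1.06, below the dotted median of all tested names at -0.16, and the 4 called members are the more abundant ones.

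Across the 6 libraries, the tested non-members whose log2 (CPM + 1) most resembled that of miR-371a-3p were miR-148a-3p (Pearson r = 0.997), miR-92a-3p (r = 0.994) and miR-483-5p (r = 0.992). For miR-522-3p they were miR-424-3p (r = 0.989), miR-205-5p (r = 0.975) and miR-200c-3p (r = 0.963). miR-424-3p had 8, 6 and 12 counts in xanthatin libraries and 6, 9 and 9 in control libraries. miR-205-5p had 11, 12 and 18 counts in xanthatin libraries and 14, 16 and 15 in control libraries. Both passed the count filter only through the control libraries. All these r values are descriptions over libraries that share a group and a depth. In all, 37 of 247 non-members had an r of 0.9 or more with miR-371a-3p and 19 with miR-522-3p. Likeness in shape is not likeness in size, as miR-92a-3p had a log2 fold change of only -0.64 and miR-148a-3p one of -1.29.

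Markers of hepatocytes and of other cell types also took smaller shares of the counts in xanthatin libraries. The hepatocyte list held 3.23% ± 0.343 of miRNA counts in xanthatin and 13.0% ± 1.53 in control libraries (SD, n = 3 each), and of 7 tested names 3 fell and 1 rose, miR-192-5p. The defining liver marker, miR-122-5p, had 218 to 236 counts in xanthatin and 2848 to 4535 in control libraries. With miR-148a-3p it held most of the list's counts in control libraries. By contrast, miR-192-5p had 1851, 2243 and 1757 counts in xanthatin and 414, 403 and 154 in control libraries. miR-194-5p had 157, 196 and 80 counts in xanthatin and 41, 12 and 0 in control libraries (log2 fold change 1.67, edgeR adjusted p = 0.338). It passed the count filter only through the xanthatin libraries, so its direction was tied to the filter. This list also holds miR-148a-3p and miR-483-5p, named above for their likeness to miR-371a-3p. Blood and serum markers held 0.0664% to 0.0719% of counts in xanthatin and 0.625% to 1.19% in control libraries, and 1 of 7 names was tested and fell, miR-486-5p, with 167, 139 and 115 counts in xanthatin and 949, 432 and 497 in control libraries. That name held most of the list's counts in both groups. The next, miR-16-5p, had more counts in xanthatin libraries (3, 29 and 31) than in control libraries (4, 4 and 2) and was too sparse to be tested. Stromal and endothelial markers held 0.0623% to 0.0885% in xanthatin and 0.413% to 0.566% in control libraries, and 2 of 3 tested names fell, miR-10b-5p and miR-143-3p. The third, miR-126-3p, did not pass (log2 fold change -1.86, edgeR adjusted p = 0.075). Both miR-143-3p and miR-126-3p passed the count filter only through the control libraries, so their direction was tied to the filter. Several defining markers were at 0 in most libraries. miR-145-5p had 0 counts in each xanthatin library and 5, 0 and 3 in control libraries. miR-214-3p had 0 counts in each xanthatin library and 39, 0 and 0 in control libraries, and miR-150-5p had 0 counts in each xanthatin library and 0, 0 and 11 in control libraries. The part of these lists, and of the difference in depth, in the change of the chromosome 19 members was not tested.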

How the data were processed

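Small RNA of vesicles was sequenced in 6 libraries, 3 xanthatin and 3 control. Per the file headers, the authors deposited counts and TPM values by miRNA name. The deposited counts are whole numbers without normalisation. Within a library, the deposited TPM values are proportional to the counts and do not depend on miRNA length. Per the submitters' processing notes the build is hg38, while the sources used here do not give the aligner, miRNA database, counter or strand setting. In 45 entries several miRNAs are named together.

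The quasi-likelihood F test of edgeR 4.0.16 (R 4.3.3) compared the groups, with TMM scaling and filterByExpr at a minimum count of 10, which left 254 names. Benjamini-Hochberg adjustment ran over all 254, with a threshold of 0.05. Standard errors were taken as |log2 fold change| over the root of F. Alternatives were other scalings and filters, DESeq2 1.42.0, limma-voom (limma 3.58.1), a replicate block, known names only and each library left out. Arm shares were compared with exact permutation tests in SciPy 1.17.1. The fit was tested on simulated data. Precursor positions come from GENCODE release 29 (GRCh38) and match those of RefSeq, where 6 of the 7 members matched a mature sequence. Depth was 204520 to 267956 miRNA counts in xanthatin and 63965 to 80088 in control libraries, where 3 counts in 1 library equal 12.5 to 16.7 CPM in xanthatin and 34.7 to 39.9 CPM in control libraries. Members, lists and the comparison were chosen with earlier results of these data known. The named miRNAs are the members, other cluster names with at least 10 counts, the 3 most abundant of each fixed list and the 3 most similar in profile to miR-371a-3p and to miR-522-3p. miR-99b-3p, miR-106b-5p, miR-145-5p, miR-194-5p, miR-214-3p and miR-522-5p were named outside this rule, after their values were seen. Identical counts were found in 0 replicate pairs.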

Additional observations from a re-analysis of the deposited data

How the results depend on the processing

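Every member stayed below 0 under all 16 alternatives, and 107 of 112 member values kept their side of the threshold. The exceptions were miR-371a-3p with no count filter (-1.14) and without control replicate 2 (-1.27), which no longer passed, and miR-372-5p with library totals only (-1.56), DESeq2 (-1.14) and limma-voom (-1.23), which then passed. With 1 library left out, miR-371a-3p ranged from -1.59 to -1.25. The number of members called was 3 to 5. In all, 77 names were called (34 higher, 43 lower), 49 with known names only, 114 with DESeq2 (60 higher, 54 lower), 82 with library totals only (22 higher, 60 lower), 67 with no count filter (37 higher, 30 lower) and 56 to 69 with 1 library left out. Library totals put the median of all tested names at -0.49, against -0.16 with TMM, and no filter put it at 0.60. Relative to the median of the same fit, miR-372-3p was at -1.32 with TMM and between -1.82 and -1.22 over the 10 alternatives that keep all libraries. Same-numbered libraries did not deviate together (r = 0.089, -0.077 and -0.14). A replicate block gave 54 calls and left 4 members called. With 1 library left out, the 5p share of miR-371a differed by -1.54 to -0.37 percentage points, that of miR-372 by 0.12 to 0.29, and the C19MC share by 0.068 to 0.18. Members with 8 to 33 counts per library have SE values of 0.47 to 0.64, against 0.18 to 0.26 for the others, so the depth limits what can be called for them.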

Other observations

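The raw counts of the abundant members were nearly constant over libraries whose miRNA totals differed 4.19-fold. The highest raw count over the lowest was 1.24 for miR-372-3p, 1.16 for miR-371b-3p, 1.19 for miR-371a-5p and 1.27 for miR-371a-3p, against a median of 6.2 over tested names with counts in every library. This measure was chosen after the values were seen, and whether part of these reads came from another library was not tested. Of 247 tested non-members, 3 had a spread as small as these 4: miR-148a-3p (1.24), miR-200c-3p (1.24) and miR-483-5p (1.21). Ratios of summed raw counts between 0.8 and 1.25, xanthatin over control, were found in 7 of 7 members and in 34 of 247 tested non-members (13.8%). Among tested known names, members included, 31 of 178 (17.4%) had such ratios. The window was not planned and encloses the members' own range, so these counts are a description and no test.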
